A study of Miniopterus schreibersii with 14 samples.

Results

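The metapodials are the long bones of the palm and sole, called metacarpals in the hand and metatarsals in the foot, and in a bat the metacarpals of digits II-V carry much of the wing. In mammals such bones form first as rods of cartilage, in which cartilage cells enlarge and are replaced by bone, while blood vessels, marrow and bone cells move in. The 200 components described here are assembled transcript pieces of the bent-wing bat, Miniopterus schreibersii, whose level stayed nearly flat through the earlier limb stages and was far higher in fetal metapodials. They were chosen from 64618 components by their own values. A component had to average 50 or more in score over 14 libraries, an S15-17 mean of 0.67 to 1.5 times the S14 mean, and levels in metacarpals and metatarsals within 2-fold of each other. A score is the authors' normalized count, rounded to a whole number. Of the 13116 components with that mean score, 8878 met the other conditions, and the 200 with the highest ratio of fetal to S15-17 mean score were taken, with 1 added to each mean.

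Each of the 14 libraries of messenger RNA came from 1 kind of dissected part of the autopod, the hand or foot end of the limb. Forelimb and hindlimb buds of stage S14 were each cut into anterior, middle and posterior parts, which gave 6 libraries. Another 6 came from stages S15-17: digit I of the forelimb and the tissue that joins it to digit II, digits II-V of the forelimb and the tissue between those, hindlimb digits I-V, and the tissue between the hindlimb digits. The last 2, from the fetal stage, held metacarpals of digits II-V and metatarsals of digits I-V. The labels name no strain, treatment or age beyond the stage, and the sources used here do not say whether a library pooled embryos. No part had a second library, so the parts of a stage serve as its replicates. A p-value reflects only how these parts varied around the fit. Few libraries remain to show that for a single component, so much of its variance is borrowed from components of similar level. Stage and kind of dissected part changed together and cannot be told apart. In such bulk tissue, more cells of a type and more RNA per cell cannot be told apart either.

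The libraries held 4550754 to 7648427 reads, as recovered from the steps of the scores, and their scores summed to 9191852 to 11045040. The table gives components by assembly number, without gene names. Of the 22775 genes in the RefSeq table for this species, 0 matched an identifier. No member can therefore be given a gene, a function or a sequence, and the dissected parts could not be checked against marker genes.

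None of the 200 members was silent before the fetal stage, so "gained only in the fetus" describes the size of their step and not their presence. Among components that averaged 50 or more, 4 had no read in any of the 12 earlier libraries. Their early ratio lies inside the window, so only the limit between metacarpals and metatarsals can have left them out. The lack of silent members thus follows from the selection. Reads were found in all 12 earlier libraries for 197 members and in at least 5 of them for the other 3. Their 12 earlier libraries together held 9 reads for the scarcest member. The S15-17 mean score had a median of 75 over the members and reached 11384. It lay under 10 for 6 members, from 10 to under 50 for 52, from 50 to under 100 for 67, from 100 to under 500 for 60 and at 500 or more for 15. Fetal mean scores ran from 129.5 to 151566, with a median of 448. Most members were thus modestly present in the early limb, and a handful were near the limit of detection there.

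**Figure D1:**
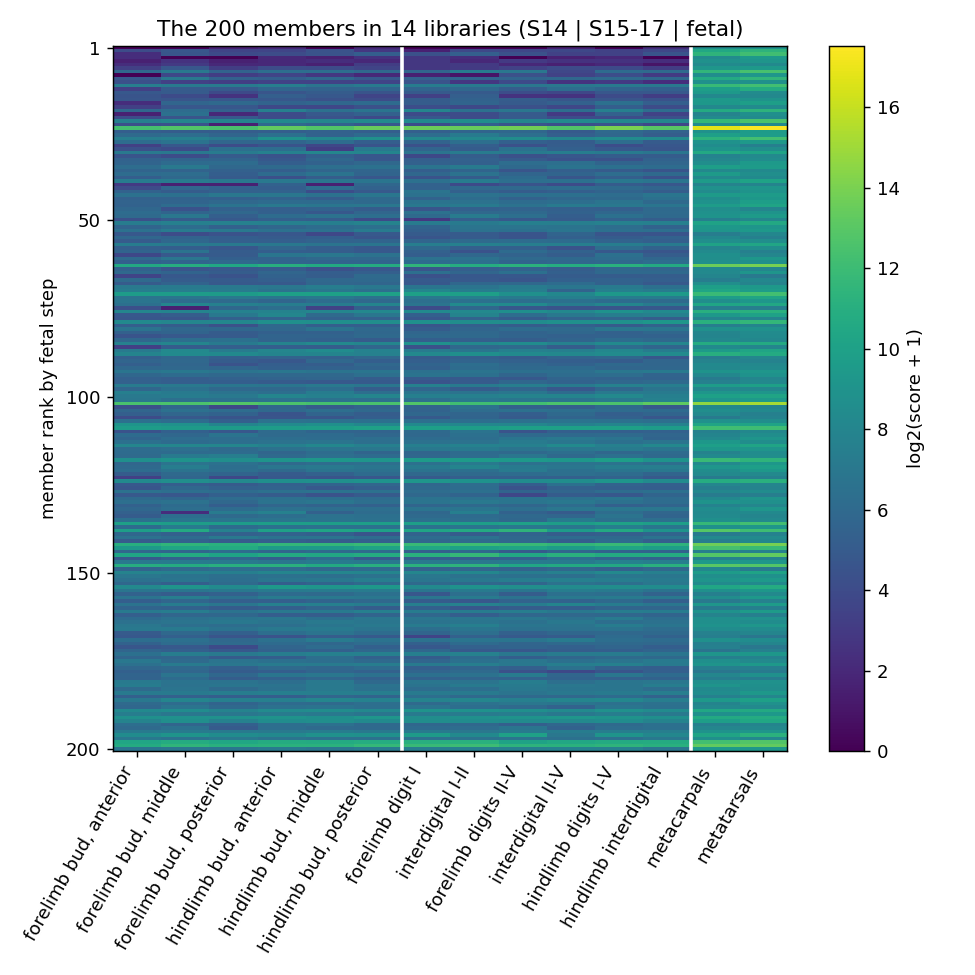
Each row is 1 of the 200 members, ranked by the ratio of fetal to S15-17 mean score, and each column is 1 library, with white lines between S14, S15-17 and fetal libraries. Colour gives log2(score + 1); the 2 fetal columns are the brightest in each row, and the rows darkest in earlier columns are mostly among the first ranks.

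The step itself is what the selection used and is given as a description, with no test. The ratio of fetal to S15-17 mean score ran from 3.44 to 206.8, with a median of 4.97. It was at least 10 for 29 members, at least 50 for 8 and at least 100 for 4. It was under 4 for 45. The last member taken had a ratio of 3.445, with a mean of 649.5 in fetal and 187.8 in S15-17 libraries. The first component left out had 3.439, with 656.5 in fetal and 190.2 in S15-17 libraries, so the edge of the set is a point on a continuous scale. Both fetal scores lay above all 12 earlier scores for all 200 members, and at least 2-fold above the highest of them for 185. Among the components that averaged 50 or more, 19.0% had both fetal scores above all earlier ones. Nothing is read from the members' count, since the ratio chose them.

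The highest ratio belonged to comp9215_c0, which scored 375 in metacarpals and 450 in metatarsals. In S15-17 libraries it scored 0 in digit I, 0 in tissue I-II, 0 in digits II-V, 2 in tissue II-V, 0 in hindlimb digits and 4 in hindlimb interdigital tissue. The S14 scores were 0, 0 and 2 in anterior, middle and posterior forelimb buds and 3, 0 and 3 in the hindlimb buds. Fetal and earlier scores do not overlap, and the early ones stand on 9 reads in 5 of the 12 earlier libraries. The 2 fetal libraries held 571 of its reads and the 6 S15-17 libraries 4, a ratio of 348 once library totals are taken into account (exact 95% interval 135 to 1282, counting error only). The component was picked by its ratio and the reads pool different parts, so the interval is a description and no test.

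Second came comp6775_c0, at 1446 in metacarpals and 2550 in metatarsals. It scored 2 in digit I and 10 to 13 in the other 5 S15-17 libraries, and 6 to 26 in the S14 buds. It was therefore detected in every early library, at a level far below the fetal one. Its pooled reads were 2708 in fetal and 40 in S15-17 libraries, a ratio of 165 (exact 95% interval 121 to 232, counting error only). This interval too is a description of a component picked by its ratio.

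**Figure D2:**
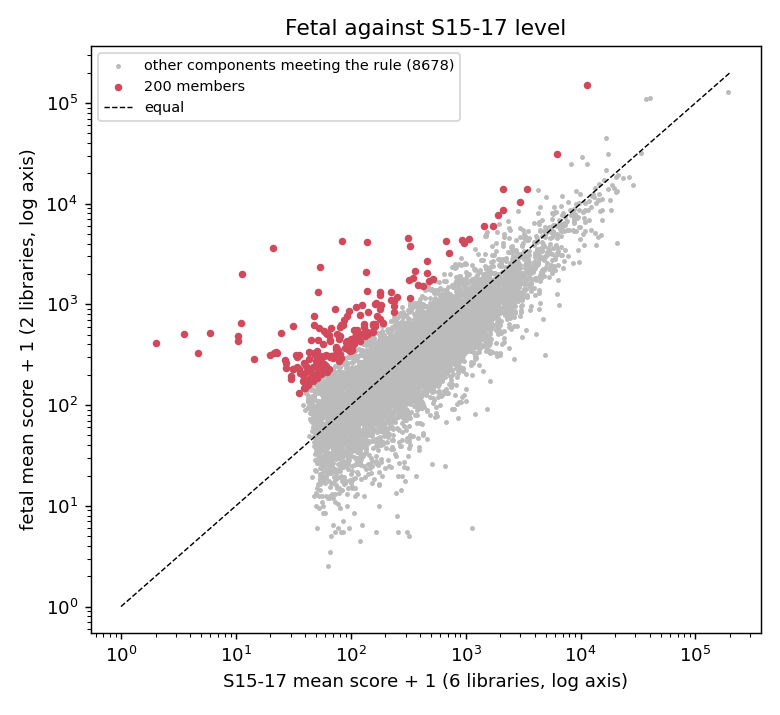
Each point is a component that met the conditions of the selection, by its S15-17 mean score (6 libraries) and its fetal mean score (2 libraries), both plus 1 and on log axes. The 200 members in red lie above the dashed line of equal level by selection, and the farthest from it are at the left, near 0, where the minimum mean of 50 leaves room for high fetal scores alone.

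A component with a low early level could reach the minimum mean of 50 over 14 libraries only with a high fetal score, so nothing is read from how the ratio varied with the early level. The members with the highest ratios were not the most abundant ones in the fetus. The most abundant, comp103_c0, was 24th by ratio, at 13.3, and had the second highest fetal mean of all components in the table. It scored 114264 in metacarpals and 188867 in metatarsals. Earlier it had scored 5271 to 11183 in the S14 buds and 7002 to 16487 at S15-17. It was thus already plentiful in the bud, and its early and fetal ranges do not overlap.

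As a group, and by selection, the members took up a larger part of the messenger RNA in the fetus. Their summed share of a library's score was 0.366% to 0.518% at S14, 0.513% to 0.646% at S15-17, and 3.36% in metacarpals and 4.30% in metatarsals. Component comp103_c0 alone held 38.7% of the members' fetal score, and the 10 most abundant members held 64.9%. Without comp103_c0 the shares were 0.319% to 0.414% at S14, 0.437% to 0.526% at S15-17, 2.23% in metacarpals and 2.55% in metatarsals. The median member scored 59.0 to 77.0 in the S14 libraries, 65.0 to 84.5 in the S15-17 libraries, 410.5 in metacarpals and 462 in metatarsals.

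**Figure D3:**
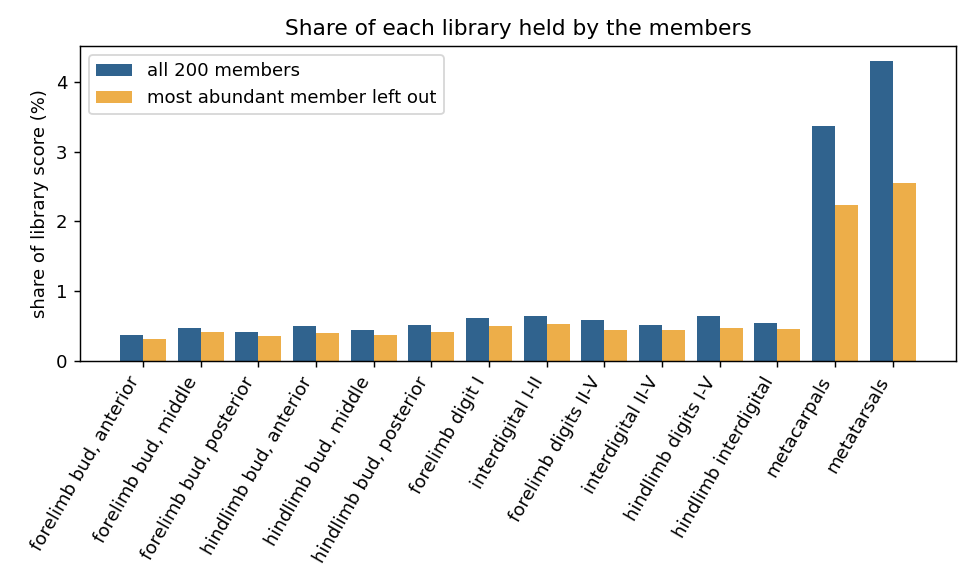
Bars give the members' summed score as a percent of the library's total score, one pair of bars per library, for all 200 members and for the rest without comp103_c0. By selection, the fetal bars, at 3.36% and 4.30% for all members, stand above every earlier bar, which reach 0.646%.

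Many other components stepped up as much at the fetal stage but failed another condition of the selection. Among the components that averaged 50 or more, 894 (6.82%) had a fetal to S15-17 ratio as high as the last member's. Of these, 444 had already risen beyond the 1.5-fold limit between S14 and S15-17, and 86 had fallen beyond the 0.67-fold limit. Another 164 were inside these limits but differed over 2-fold between metacarpals and metatarsals. The flat early course is thus the less common history of a large fetal step.

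Inside the permitted window the members leaned slightly upward before the fetal stage. The ratio of S15-17 to S14 mean score had a median of 1.09 over the members and 0.942 over all components that met the conditions. It was above 1 for 131 members (65.5%), against 39.9% of those components. The window was part of the selection, so this is a description. Upper-quartile scaling left 85 members above 1 and equal library totals 158, so the direction depends on the scaling. The median log2 change, S15-17 minus S14, of the 20429 components that averaged 10 or more was -0.02 with the deposited scores, -0.21 with upper-quartile scaling and 0.14 with equal totals. Relative to it, the members lay 0.163 higher on the log2 scale with the deposited scores, 0.163 with upper-quartile scaling and 0.165 with equal totals. A scaling moves all components of a library by the same factor, so these values had to be nearly alike. Nothing is read from their likeness.

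Metacarpals and metatarsals carried the members at similar levels by selection, yet the metatarsals were more often the higher of the pair. The rule used both fetal libraries, so this is a description. Of the 200 members, 65 scored higher in metacarpals and 135 in metatarsals, so 67.5% were higher in metatarsals. Over all components that met the conditions, 50.1% were. Over 1.5-fold differences were found in 15 members toward metacarpals (7.5%, against 6.45% of all) and in 48 toward metatarsals (24.0%, against 7.19%). The median log2 difference, metacarpals minus metatarsals, was -0.27 over the members and -0.004 over all. Each limb has 1 fetal library, so there is no replicate check and no test. Under 3 other scalings, 125 to 144 members were higher in metatarsals.

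A lean toward the hindlimb was also present in the anterior and posterior S14 buds, in libraries that the fetal values do not touch. The middle pair did not share it, as given below. The selection used only the mean of the 6 bud libraries, so differences among them are independent of it. In limma on log2(score + 1), with bud part as block, 195 members averaged 10 or more over the 6 buds and were tested. At an unadjusted p under 0.05, 6 members were higher in forelimb buds (3.08%, against 4.32% of the 18957 components tested) and 37 were lower (19.0%, against 9.32%). All 3 bud pairs were higher in forelimb for 23 members (11.8%, against 14.1%) and lower for 52 (26.7%, against 19.1%). The median log2 difference, forelimb minus hindlimb, was -0.15 over the members tested and -0.02 over all components tested. The members were less abundant than the components tested, with a median S14 score of 71.7 against 129.7, and the part of this in the counts was not tested. After adjustment over all components, 2 members passed (1.03%, against 0.902%), a share near that of all components. The count of 37 became 22 without the posterior forelimb bud, 22 without the posterior hindlimb bud and 24 without the anterior forelimb bud, while the 2 adjusted calls became 5 to 14 without any 1 bud library. The calls over all components also grew, to 189 to 730 without 1 library, against 171 in the reported fit. For the shifts in the count of 37, the matching shares of all components are not given.

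Those 2 were comp8618_c0 and comp2776_c0, of which the second was singled out after its values were seen. Component comp8618_c0 scored 13, 29 and 31 in anterior, middle and posterior forelimb buds, and 109, 121 and 98 in the hindlimb buds. All 3 forelimb scores lie below all hindlimb scores. Its log2 difference was -2.21 (SE 0.31, limma adjusted p = 0.0034). At S15-17 it scored 36 in digit I, 58 in tissue I-II, 47 in digits II-V and 35 in tissue II-V, against 87 in hindlimb digits and 35 in hindlimb interdigital tissue. In the fetus the order was the other way, with 423 in metacarpals and 262 in metatarsals. Component comp2776_c0 scored 183, 194 and 143 in forelimb buds and 489, 317 and 463 in hindlimb buds (log2 difference -1.27, SE 0.20, limma adjusted p = 0.0066), again without overlap. It kept its order in the fetus, with 2622 in metacarpals and 5058 in metatarsals. Both calls held without any 1 bud library. They were lost when the minimum score was taken over all 14 libraries, with no minimum, and without the block.

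The other members named for this comparison did not pass the adjusted threshold. Component comp9647_c0 scored 18, 20 and 2 in forelimb buds and 62, 44 and 29 in hindlimb buds, with a log2 difference of -2.05 (SE 0.46, limma adjusted p = 0.057). Toward the forelimb, comp5667_c0 scored 170, 174 and 156 against 96, 115 and 83 in hindlimb buds, with a log2 difference of 0.77 (SE 0.20, limma adjusted p = 0.099). It was also higher in the fetal forelimb, at 1271 in metacarpals and 807 in metatarsals. Component comp16991_c0 scored 58, 80 and 87 in forelimb buds and 47, 40 and 32 in hindlimb buds, with a log2 difference of 0.90 (SE 0.29, limma adjusted p = 0.19). In the fetus it scored 280 in metacarpals and 270 in metatarsals.

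The bud differences were also counted by the limb that was higher in the fetus. Among the 131 tested members higher in metatarsals, 1 was higher in forelimb buds at an unadjusted p under 0.05 and 26 were lower (19.8%). Among the 64 higher in metacarpals, 5 were higher and 11 lower (17.2%). The median log2 difference in the buds was -0.15 in the first set and -0.10 in the second, and the difference between the sets was not tested. Pair by pair, the hindlimb was higher for 61.5% of all 200 members in the anterior bud, 50.5% in the middle bud and 67.0% in the posterior bud. Over all components that met the conditions these shares were 46.3%, 56.4% and 56.3%. The middle pair thus did not share the lean.

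**Figure D4:**
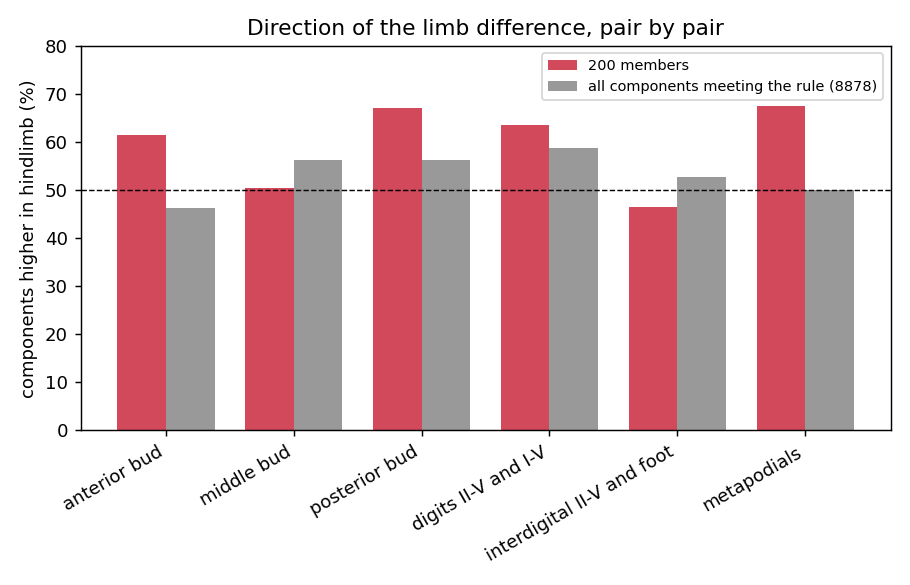
Bars give the percent of components that scored higher in hindlimb than in forelimb, in each of 6 matched pairs of 1 library with 1 library, for the 200 members (left bars) and for all components that met the conditions (right bars). The members' bars stand above the others in the anterior and posterior buds, the digits and the metapodials, and below them in the middle buds and the interdigital tissue.

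**Figure D5:**
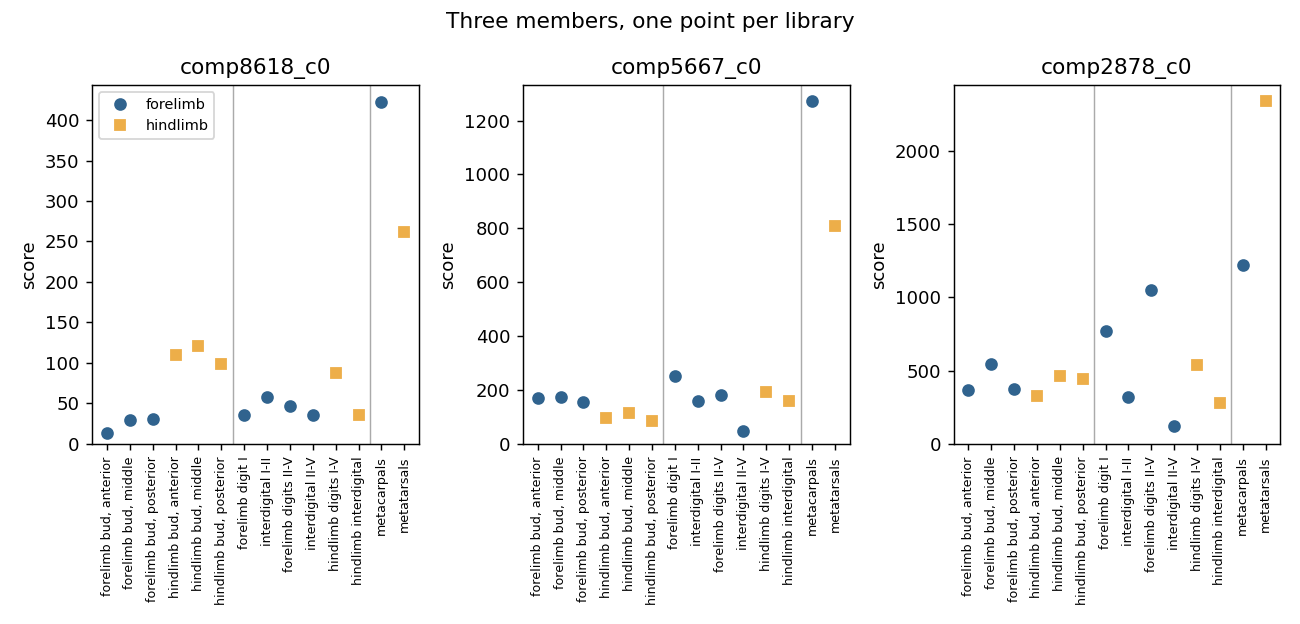
Scores of 3 members in each of the 14 libraries, 1 point per library, with grey lines between S14, S15-17 and fetal libraries. Component comp8618_c0 is higher in hindlimb buds but higher in metacarpals, comp5667_c0 is higher in forelimb buds and in metacarpals, and comp2878_c0 is higher in digits than in interdigital tissue.

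At S15-17 the share of members that differed between forelimb and foot was no higher than that of all components in the reported fit. The mean of thumb side and wing region was set against the foot, with tissue as block, and 194 members passed the minimum score. In limma, 0 members passed the adjusted threshold, where 0.945% of the 20105 components tested did, and the smallest adjusted p of a member was 0.061. Voom on recovered reads called 1 member, of 238 components called in all. Limma called 2 members without digit I (241 components in all), 3 without tissue I-II (198), 4 without digits II-V (471) and 2 without tissue II-V (257). At an unadjusted p under 0.05, 8 were higher in the forelimb regions (4.12%, against 4.33% of all) and 12 were lower (6.19%, against 6.47%). Without digit I, 10 were higher and 5 lower, and without tissue I-II 2 and 13. The balance also moved without either foot library, but those fits keep a single foot library. The matching shares of all components are not given, so nothing is read from these shifts. In both tissues 33 members were higher (17.0%, against 21.9%) and 55 lower (28.4%, against 31.2%). In the reported fit none of these shares exceeds that of the components at large. Single digit libraries did lean, with hindlimb digits higher than forelimb digits II-V for 63.5% of the members and 58.7% of all components that met the conditions. Interdigital tissue did not, at 46.5% and 52.8%.

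Component comp4415_c0 came closest to the threshold and lay on either side of it by setting. It scored 34 in digit I and 73 in digits II-V, against 123 in hindlimb digits, and 52 in tissue I-II and 66 in tissue II-V, against 117 in the foot. Every forelimb score is below both foot scores. The log2 difference was -1.14 (SE 0.27, limma adjusted p = 0.061). It passed with upper-quartile scaling (limma adjusted p = 0.021), robust shrinkage (0.040), voom (0.047), median-centred libraries (0.030), without tissue I-II (0.021) and without digits II-V (0.0092). Over all settings its adjusted p ran from 0.0092 to 0.79. Component comp13677_c0 scored 11 and 30 in digit I and digits II-V against 70 in the foot, and 43 and 33 in the tissues between against 44, with a log2 difference of -1.05 (SE 0.43, limma adjusted p = 0.38). In the other direction comp14595_c0 scored 51 and 90 in the digits against 27 in the foot, and 33 and 40 in the tissues between against 24, with a log2 difference of 0.94 (SE 0.33, limma adjusted p = 0.29). Component comp11540_c0 scored 75 and 82 in the digits against 57 in the foot, and 144 and 38 in the tissues between against 35. Its log2 difference was 0.76 (SE 0.35, limma adjusted p = 0.45).

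Digits hold the cartilage from which the later bones form, while the tissue between them becomes web or is lost. In limma with region as block, 3 of the 194 members tested passed the adjusted threshold, all higher in digits (1.55%, against 1.34% of the components tested). That share is close to the one of all components. At an unadjusted p under 0.05, 14 members were higher in digits (7.22%, against 5.9%) and 5 were lower (2.58%, against 4.28%). In all 3 regions, 29 members were higher in digits (14.9%, against 16.3%) and 25 were lower (12.9%, against 12.7%). The median log2 difference, digit minus interdigital, was -0.04 over the members and 0.02 over all components tested. These shares lie on both sides of those of all components. The adjusted calls numbered 7 without digit I (411 components in all), 6 without tissue I-II (401) and 5 without digits II-V (244), against 3 of 269 in the reported fit. They numbered 4 without tissue II-V (225), 0 without hindlimb digits (0) and 0 without hindlimb interdigital tissue (63). The 5 lower members became 8 without hindlimb digits and 12 without hindlimb interdigital tissue. The matching shares of all components are not given, so nothing is read from this.

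The 3 that passed included comp2878_c0, which scored 769 in digit I, 1051 in digits II-V and 541 in hindlimb digits, against 319, 121 and 280 in the matching interdigital tissue. The digit scores lie above all interdigital scores (log2 difference 1.77, SE 0.27, limma adjusted p = 0.0013). Its fetal step was the smallest over the earlier libraries, since the metacarpal score of 1219 was only 1.16 times the score in digits II-V. Component comp3696_c0 scored 248, 122 and 200 in digits and 92, 78 and 75 in interdigital tissue (log2 difference 1.15, SE 0.23, limma adjusted p = 0.011), again without overlap. The abundant comp103_c0, singled out after its values were seen, scored 12105, 13530 and 16487 in digits and 11315, 7002 and 7863 in interdigital tissue (log2 difference 0.71, SE 0.15, limma adjusted p = 0.017). On the thumb side its difference was small, at 0.10 on the log2 scale.

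All 3 calls were lost without hindlimb digits (limma adjusted p of 0.16, 0.27 and 0.34, in the same order) and without hindlimb interdigital tissue (0.072, 0.17 and 0.28). The first of these fits called 0 components in all and the second 63, against 269 in the reported fit. These losses are thus not particular to the 3 members. That of comp3696_c0 was also lost without digit I (0.086) and without tissue I-II (0.064). With robust shrinkage the calls of comp2878_c0 (limma adjusted p = 0.565) and comp103_c0 (0.119) were lost. Toward the interdigital tissue, comp369_c0 scored 41, 75 and 175 in digits and 231, 130 and 195 in interdigital tissue, with a log2 difference of -1.14 (SE 0.31, limma adjusted p = 0.094). The near-absent comp6775_c0 was the other, at 2, 12 and 10 in digits and 13, 13 and 12 in interdigital tissue (log2 difference -0.86, SE 0.59, limma adjusted p = 0.70).

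The wing region at S15-17, which joins digits II-V with the web tissue between those digits, was set against the mean of thumb side and foot. In limma with tissue as block, 2 of the 194 members passed (1.03%, against 1.03% of all components), both lower in the wing. At an unadjusted p under 0.05, 6 were higher in the wing (3.09%, against 3.27%) and 18 lower (9.28%, against 6.42%). These became 11 higher and 13 lower without tissue I-II, 11 and 14 without hindlimb digits, 11 and 15 with voom, and 7 and 12 without tissue II-V. They became 3 and 23 without digit I and 4 and 25 without hindlimb interdigital tissue. The matching shares of all components under these settings are not given, so nothing is read from the shifts. In both tissues 41 members were higher (21.1%, against 25.8%) and 68 lower (35.1%, against 27.5%). The median log2 difference was -0.07 over the members and -0.01 over all components tested. Adjusted calls numbered 5 without digit I (277 components in all) and 7 without digits II-V (310). They numbered 0 without hindlimb digits (31) or hindlimb interdigital tissue (17), against 2 of 208 in the reported fit.

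Both called members were singled out after their values were seen. Component comp4403_c0 scored 444 in digits II-V, against 1004 in digit I and 639 in hindlimb digits, and 273 in tissue II-V, against 933 in tissue I-II and 765 in the foot. The wing scores are the lowest of the 6 (log2 difference -1.24, SE 0.18, limma adjusted p = 0.0014). In the S14 buds it had scored 789 to 1066, and in the fetus it scored 3720 in metacarpals and 4741 in metatarsals. Component comp3424_c1 scored 1072 in digits II-V, against 2113 in digit I and 1696 in hindlimb digits, and 1478 in tissue II-V, against 2205 and 1729 (log2 difference -0.61, SE 0.14, limma adjusted p = 0.040). The call of comp4403_c0 was lost without tissue II-V (limma adjusted p = 0.052), hindlimb digits (0.055) or hindlimb interdigital tissue (0.070). That of comp3424_c1 was lost without any 1 library but tissue II-V (0.13 to 0.57).

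By the size of the difference, comp9550_c0 and comp9619_c0 led toward lower values in the wing. Component comp9550_c0 scored 5 in digits II-V, against 9 in digit I and 15 in hindlimb digits, and 5 in tissue II-V, against 39 and 8 (log2 difference -1.37, SE 0.62, limma adjusted p = 0.48). Component comp9619_c0 scored 19 in digits II-V, against 51 and 22, and 13 in tissue II-V, against 65 and 38 (log2 difference -1.32, SE 0.38, limma adjusted p = 0.13). Toward higher values, comp14455_c0 scored 68 against 43 and 27 in digits and 45 against 20 and 24 in interdigital tissue (log2 difference 0.99, SE 0.35, limma adjusted p = 0.27). Component comp14595_c0, described above for the foot, had 0.87 (SE 0.33, limma adjusted p = 0.34).

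The members' highest library within a stage was spread otherwise than that of components at large, which is given here without a test. The tissue between digits I and II was the highest of the 6 libraries for 52 members (26.0%), while it was so for 13.1% of all components that met the conditions. Hindlimb digits were the highest for 41 members (20.5%, against 17.4%) and interdigital tissue II-V for 30 (15%, against 15.1%). Below their share were hindlimb interdigital tissue, highest for 27 (13.5%, against 20.2%), digits II-V for 26 (13.0%, against 18.2%) and digit I for 24 (12%, against 16.0%). In the S14 buds, the anterior forelimb was the highest for 25 members (12.5%, against 32.5%), the middle forelimb for 41 (20.5%, against 12.4%) and the posterior forelimb for 17 (8.5%, against 9.95%). The anterior hindlimb was the highest for 27 (13.5%, against 8.19%), the middle hindlimb for 44 (22.0%, against 13.3%) and the posterior hindlimb for 46 (23.0%, against 23.7%). The part that library composition has in these counts was not tested.

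From anterior to posterior in the S14 buds, no member passed the threshold in limma with limb as block, and the smallest adjusted p of a member was 0.12. Among all components tested, 0.132% passed. At an unadjusted p under 0.05, 5 members were higher in anterior parts (2.56%, against 2.4%) and 9 were lower (4.62%, against 2.89%). In both limbs 55 members were higher (28.2%, against 27.6%) and 49 lower (25.1%, against 26.4%). Without 1 library the 5 higher members became 2 to 10, and the 9 lower ones became 1 without the anterior forelimb bud and 19 without the anterior hindlimb bud. The matching shares of all components in these fits are not given, so nothing is read from the shifts. Voom on recovered reads called 0 components in all, so its count of members could only be 0. Limma called 9 without the anterior hindlimb bud (539 components in all) and 5 without the posterior hindlimb bud (247), against 25 components in the reported fit.

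The widest differences among members along this axis were in scarce components. Component comp9647_c0 scored 18 in the anterior and 2 in the posterior forelimb bud, and 62 and 29 in the hindlimb (log2 difference 1.87, SE 0.56, limma adjusted p = 0.39). Component comp9550_c0 scored 22 against 5 and 39 against 11 (1.84, SE 0.51, limma adjusted p = 0.30). Toward the posterior side, comp2111_c0 scored 4 in the anterior and 64 in the posterior forelimb bud, and 47 and 69 in the hindlimb (-2.12, SE 0.62, limma adjusted p = 0.34). Component comp14595_c0 scored 18 against 82 and 81 against 133 (-1.42, SE 0.55, limma adjusted p = 0.73).

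Before the fetal stage the members varied more among the parts of 1 stage than components at large, which the selection, made on stage means, did not use. Among components with an S15-17 mean score from 50 to under 100, the highest of the 6 libraries was over 2-fold above the lowest for 32 of 67 members (47.8%). It was so for 28.7% of the 1165 components in that range that met the conditions, members included. From 100 to under 500, it was so for 12 of 60 members and for 10.5% of 4088 components. In the S14 buds the shares were 45.5% of 55 members and 28.8% of 1101 components from 50 to under 100, and 27.8% of 54 and 10.4% of 3970 above that. Within each range the members lay lower in level, with a median S15-17 mean of 65.7 against 72.7 in the lower range and 155.2 against 242.7 in the higher one. In the buds these medians were 72.2 against 73.5 and 140.5 against 244.1. Level was thus not matched within a range, and the part of counting error in these shares was not tested.

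For 14 of the 200 members, the table held other components with the same assembly number, 15 in all, and no number held 2 members. The share of all components with such neighbours was not counted. Of the 13 such neighbours that averaged 10 or more, 3 had a fetal to S15-17 ratio of 2 or more, and their median ratio was 0.695. Over all 20429 components with that mean score, 18.4% reached 2 and the median was 0.862. The neighbours are few and their share at 2 or more is not far from that of all components, so nothing is read from it.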

How the data were processed

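Messenger RNA of 14 dissected limb parts was sequenced. The authors deposited 1 table of scores per assembled component, normalized counts rounded to whole numbers. How they were scaled is not stated. Per the submitters' processing notes, CASAVA 1.8, RSEM and edgeR were used, in a role and order not given in the sources used here. In each library the low scores fall on multiples of 1 step, and reads were recovered by dividing by it (99.981% to 100.0% of nonzero scores lay within 0.5 of a multiple; scores up to 2000 set the step, the largest that matched them). They were used for depth, intervals and limma voom.

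The members and lists were chosen with earlier results of these data known. Tests were run only on differences within S14 and within S15-17, 5 in all, with limma 3.58.1 in R 4.3.3 on log2(score + 1) with a mean-variance trend. Each fit held 6 libraries and components that averaged 10 or more in score over them. Matched parts come from the anatomy in the labels. Adjusted p-values are Benjamini-Hochberg over all components tested, two-sided, with a threshold of 0.05. A fold change on this scale understates the change of low components. Named are the 2 members with the highest fetal ratio and, per test, at most 2 in each direction with the largest difference of 1 sign in every matched pair. Called members outside that rule are said to be so. Only the fit of digits against interdigital tissue at S15-17 was tested on simulated data, which held no differences between regions. The rest was done in Python 3.11.15 (matplotlib 3.10.9, scipy 1.17.1, pandas 2.3.3, numpy 2.4.6). Alternatives are given at the end. Median-centred libraries and other scalings of the counts of directions were added after seeing the data.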

Additional observations from a re-analysis of the deposited data

Results flagged for a closer look

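In the 6 libraries of a stage, 5 values of named members, of 46 sets checked, lay far from the other 5 libraries. Chance gives about 1 in 20 sets, but most of these members were named for wide differences between the parts of a stage, so the count cannot be read against that rate. The gap to the nearest library is given as a part of the whole range. Component comp6775_c0 scored 2 in digit I and 10 to 13 in the other S15-17 libraries (0.727). Component comp14455_c0 scored 100 in the middle forelimb bud and 27 to 49 in the other buds (0.699). Component comp9550_c0 scored 39 in tissue I-II and 5 to 15 elsewhere at S15-17 (0.706). Component comp2111_c0 scored 4 in the anterior forelimb bud and 47 to 69 in the other buds (0.662), and 86 in hindlimb digits against 31 to 48 elsewhere at S15-17 (0.691).

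For 3 named members the limb difference had one sign in all 3 bud pairs and the other sign in both S15-17 pairs of wing and foot parts. The change between the stages was not tested. The mean log2 difference, forelimb minus hindlimb, of comp16991_c0 was -0.69 ± 0.53 (SD, n = 2 pairs) at S15-17 and 0.90 ± 0.56 (SD, n = 3 pairs) at S14, a change of -1.59. That of comp5667_c0 was -0.93 ± 1.19 at S15-17 and 0.77 ± 0.16 at S14, a change of -1.70. That of comp9647_c0 was 0.37 ± 0.26 at S15-17 and -2.05 ± 1.15 at S14, a change of 2.42.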

How the results depend on the processing

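Of the 200 members, 176 to 189 were kept without any 1 earlier library, 198 and 181 with pseudocounts of 0.25 and 5, and 166 with upper-quartile scaling. The set depended more on its limits: 81 were kept with a minimum mean score of 10, 125 with one of 100, 120 with a narrower early window, 129 with a window of 0.5 to 2, and 86 with no limit on the limbs, since other components then entered or left the top 200. The counts of members called depended on the fit. With the minimum taken over all 14 libraries, or with no minimum, or with no block, 0 members were called for digits, the wing and the bud limbs (3, 2 and 2 as reported). The first of these also lowered the calls over all components from 269 to 4 for digits, 208 to 3 for the wing, 190 to 6 for the foot, 171 to 0 for the bud limbs and 25 to 0 along the bud axis; the cause was not tested. Upper-quartile scaling gave 7, 4 and 2 for digits, the wing and the foot (579, 379 and 319 over all components). Robust shrinkage gave 1 for digits, 1 for the foot and 4 for the bud limbs (299, 227 and 242 over all components). Median-centred libraries gave 6 for digits and 1 for the foot (389 and 254), and voom 1 for the foot (238). With no minimum, 0 components in all were called for digits, the wing and the bud limbs. With no block these numbers were 24, 19 and 17. Without 1 library the count ran from 0 to 7 for digits, 0 to 7 for the wing, 0 to 4 for the foot, 5 to 14 for the bud limbs and 0 to 9 along the bud axis. The calls over all components moved as well, from 0 to 411 for digits and from 189 to 730 for the bud limbs. The 37 members lower in forelimb buds at an unadjusted p under 0.05 became 26 to 37 under the other settings and 22 to 50 without 1 library. The matching shares of all components are not given, so nothing is read from these shifts. Of 357 values of named members under alternatives, 0 changed direction, 40 lost a call and 25 gained one. No paired analysis was possible because the labels carry no replicate numbers to pair by; the fits matched libraries by dissected part instead. Scarce members limit the early differences: 1 read already gives a score of 1 or 2, by library.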
